A study of Mus musculus with 12 samples.

Results

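Genes for subunits of the proteasome were followed through RNA immunoprecipitation of the 3 YTHDF proteins from cultured mouse hippocampal neurons. Members were the protein-coding genes whose symbol begins with Psma, Psmb, Psmc, Psmd, Psme, Psmf or Psmg and a digit, which gave 47 genes among the 16820 tested and the 55573 in the count table. All 47 passed the filter on low counts, which follows from the list they were drawn from having been filtered in the same way. The name rule caught 14 genes of the constitutive core particle, 17 of the 19S regulatory particle, the inducible core subunit Psmb10, 7 assembly factors, 4 activator genes and the regulator Psmf1, which make 44. It also caught 3 genes by name alone. Psmc3ip and Psme3ip1 encode partners of Psmc3 and Psme3, and Psme2b is a single-exon copy of the activator gene Psme2.

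The neurons came from hippocampi of newborn C57BL/6 pups of both sexes and were kept for 14 days in culture with Ara-C, a drug that holds back dividing glia. The 4 groups of 3 libraries were Input, for which total RNA was extracted directly from a portion of lysate, with no antibody, and RNA eluted from beads carrying an antibody against endogenous YTHDF1, YTHDF2 or YTHDF3. Within a replicate all 3 immunoprecipitations (RIPs) and the Input drew on a common lysate, pooled from several wells. No gene was deleted and no drug response was compared, all groups shared the strain, and a RIP with a control antibody was not analysed here, so each comparison sets one RIP against total RNA or against another RIP.

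The proteasome degrades proteins marked with ubiquitin. Its core particle is a barrel of alpha rings, which gate the entrance, and beta rings, which carry the proteolytic sites. The 19S regulatory particle caps the barrel, receives ubiquitinated proteins, removes the ubiquitin and unfolds the substrate with a ring of ATPases. In neurons the proteasome acts in the soma and at synapses, where protein turnover takes part in synaptic plasticity. YTHDF proteins are cytoplasmic readers of N6-methyladenosine (m6A), a modification of mRNA that is placed in short sequence contexts of which GGACT is a common one.

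Library totals ran from 9092494 to 13833973 counts in Input, from 10037804 to 38909592 in the YTHDF1 RIP, from 6020072 to 9259893 in the YTHDF2 RIP and from 21395271 to 22400602 in the YTHDF3 RIP. All 6 neuronal marker genes were tested, and their summed level was 2937 to 3941 CPM (counts scaled to library size) in Input against 3889 to 6685, 1834 to 2520 and 2998 to 5542 for YTHDF1, YTHDF2 and YTHDF3. Astrocyte markers were also present, at 997 to 3331 CPM over 6 genes in Input and 1221 to 2847, 1710 to 2327 and 1202 to 2646 in the RIPs, and 1 of 7 microglial markers passed the filter. Markers of the oligodendrocyte lineage summed to 56.5 to 371 CPM in Input and 309 to 1384, 338 to 456 and 55.8 to 508 in the RIPs, and those of fibroblasts to 4.27 to 58.2 in Input and 37.2 to 67.3, 67.1 to 109 and 3.38 to 97.3 in the RIPs, where the YTHDF2 libraries lay above Input. No marker was at 0 throughout a group, and the part of these cell types in the results was not tested. A RIP and its Input came from the same cells, but between replicates of these bulk samples fewer cells of a type and less RNA per cell cannot be told apart. The second YTHDF1 library stood apart from the other 2 for the core genes, as given below.

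The places where GGACT occurs in a few of the transcripts described below are shown first, because these readers bind modified adenosines in that context. Each line is 21 bases of the GENCODE M21 transcript on GRCm38, 5′ to 3′, with GGACT in capitals. The catalytic subunits Psmb5, Psmb6 and Psmb7 each held a single GGACT, all in coding sequence.
Psmb5: gatctgctGGACTtgggtccg
Psmb6: ctaggagcGGACTccaggaca
Psmb7: agcaagctGGACTttcttcgt
The Psmb5 site lies in exon 1 of 3 (chr14:54617904-54617908, minus strand), the Psmb6 site in exon 2 of 6 (chr11:70525932-70525936, plus strand) and the Psmb7 site in exon 7 of 8 (chr2:38590737-38590741, minus strand). Counted from the first base of GGACT to the end of the stop codon, their distances were 712, 571 and 157 bases.

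Psma6, a subunit of the alpha ring, and Psmb3, a structural subunit of the beta ring, held 3 and 2 sites and were among the core transcripts with low values in all 3 RIPs.
Psma6, first site: accagggtGGACTtacatctg
Psma6, second site: agaggaaaGGACTgtgcagtt
Psma6, last site: actggttaGGACTctgtataa
Psmb3, first site: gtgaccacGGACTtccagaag
Psmb3, second site: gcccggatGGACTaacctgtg
Psma6 carried the first pair in exon 2 of 7 (chr12:55407498-55407502 and chr12:55407527-55407531) and the last in the 3′UTR in exon 7, 126 bases after the stop codon (chr12:55418421-55418425). Psmb3 carried its sites in exons 2 and 6 of 6 (chr11:97703895-97703899 and chr11:97713435-97713439). The second lies 7 bases from the end of the stop codon by the same count and overlaps that codon, which begins with the T of GGACT.

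For contrast, Psmd2, the large scaffold subunit of the 19S base, and Psme4, the large activator PA200, were the members called enriched in at least 2 RIPs.
Psmd2: tcctctgaGGACTacatcaag
Psme4, exon 14 site: gatgctttGGACTaatagaaa
Psme4, exon 18 site: cctgtcaaGGACTggggtaag
Psme4, exon 21 site: tgtataccGGACTggaacatg
Psme4, exon 28 site: catgattgGGACTgtattgtg
Psme4, exon 45 site: gtgtgcttGGACTtggtgcat
The single Psmd2 site lies in exon 10 of 21 (chr16:20656962-20656966, plus strand), 1417 bases from the end of the stop codon by the same count. The Psme4 sites lie in exons 14, 18, 21, 28 and 45 of 47, all in coding sequence on chromosome 11, and the exon 18 site crosses a splice junction. The presence of these letters says nothing about whether a given adenosine was modified in these neurons.

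GGACT was found on the sense strand in 38 of 47 members (80.9%), in 9 of 14 core transcripts (64.3%) and in 17 of 17 transcripts of the 19S particle, against 92.1% of coding genes. These shares were not matched for transcript length, whose medians were 1162.5 bases for core, 1636 for 19S and 3157 for coding transcripts. The 9 members without it were Psma1, Psma4, Psma5, Psma7, Psmb4, Psmd10, Psme1, Psmg2 and Psmg4. Per kilobase, the shorter motif GGAC, which is contained in GGACT, occurred at a median of 3.74 in core transcripts, 5.04 in 19S transcripts and 4.16 in coding genes. Core and 19S transcripts both had short 3′UTRs, with medians of 161 and 213 bases against 1079 over coding genes, and GGAC was present in the 3′UTR of 50% of core, 58.8% of 19S and 82.2% of coding transcripts.

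In Input, members were present at a median of 14.3 CPM per kilobase of exonic length, with a range from 1.63 to 42.0. The highest level per length was that of Psmc1, an ATPase of the 19S base, at 42.0 ± 4.99 (SD, n = 3), followed by the catalytic subunit Psmb5 at 35.1 ± 6.87 and the ubiquitin receptor Psmd4 at 34.5 ± 3.60. Median levels per exonic length were 27.1 for the 19S ATPases, 31.1 for the other base subunits, 13.6 for the lid, 15.8 for alpha and 17.2 for beta subunits. Assembly factors stood lower, with a median of 3.64, and the inducible Psmb10, which replaces Psmb7 in immunoproteasomes, was at 2.83 CPM per kilobase. In the order of levels, 42 of 46 neighbouring pairs were closer than the larger of their SDs, so that the order is known only roughly. The order also depends on the length used. Per kilobase of 1 transcript per gene, Psmd4 stood at 72.6, Psmb6 at 57.4, Psma7 at 53.1, Psmc1 at 51.0 and Psmb5 at 35.1. Psma7 was at 15.8 per kilobase of exonic length. The medians by role hold for exonic length alone, and core and 19S levels were not compared on transcript length.

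The question for each RIP was which of these mRNAs were recovered above or below their share of total RNA. Most were recovered below it. A gene was called enriched or depleted where edgeR's quasi-likelihood test gave an adjusted p of at most 0.05 over all 16820 genes and the log2 fold change was at least 0.32 in size. In the YTHDF1 RIP 29 members were depleted and 2 enriched, where 26.1% of all genes tested were depleted and 27.5% enriched. In the YTHDF2 RIP 22 were depleted and 2 enriched, against 19.3% and 16.1% of all genes. In the YTHDF3 RIP 36 were depleted and 1 enriched, against 23.2% and 16.7%. Among the 13376 protein-coding genes alone the depleted shares were 23.5%, 17% and 19.6%. The counts by role given below stand beside these same shares.

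The median log2 fold change of the 47 members against Input was -1.17 for YTHDF1, -0.63 for YTHDF2 and -1.07 for YTHDF3, where the median of all genes was 0.02, 0.02 and 0.05. Values below 0 were seen for 42, 38 and 45 members. The 3 comparisons share the Input libraries and are therefore not independent of each other. In all 3 of them 20 of 47 members (42.6%) were depleted, against 14% of all genes. These were 11 of 14 core genes (78.6%), 3 of 17 genes of the 19S particle (17.6%, near the share over all genes) and 6 of the remaining 16 (37.5%). The 8 members called depleted in no RIP (17%, against 67.2% of all genes) were Psmd1, Psmd2, Psmd3, Psmd7, Psmd12, Psme4, Psmg2 and Psme3ip1.

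Because same-numbered libraries drew on a common lysate, each comparison was also fitted with the replicate as a block and the groups compared alone. In this paired fit 21, 17 and 39 members were depleted and 0, 1 and 1 enriched in the YTHDF1, YTHDF2 and YTHDF3 RIPs, where 18%, 16.8% and 32.3% of all genes were depleted and 14.2%, 11.9% and 36.5% enriched. Psma7, Psmc3ip, Psmd4, Psmd5, Psmd10, Psme2, Psme3 and Psmg1 lost their YTHDF1 depletion call, with adjusted p between 0.0516 and 0.101. In YTHDF2 the call was lost for Psma5, Psmd5, Psmd9, Psmd10 and Psme3, with adjusted p between 0.0579 and 0.0885.

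**Figure D1:**
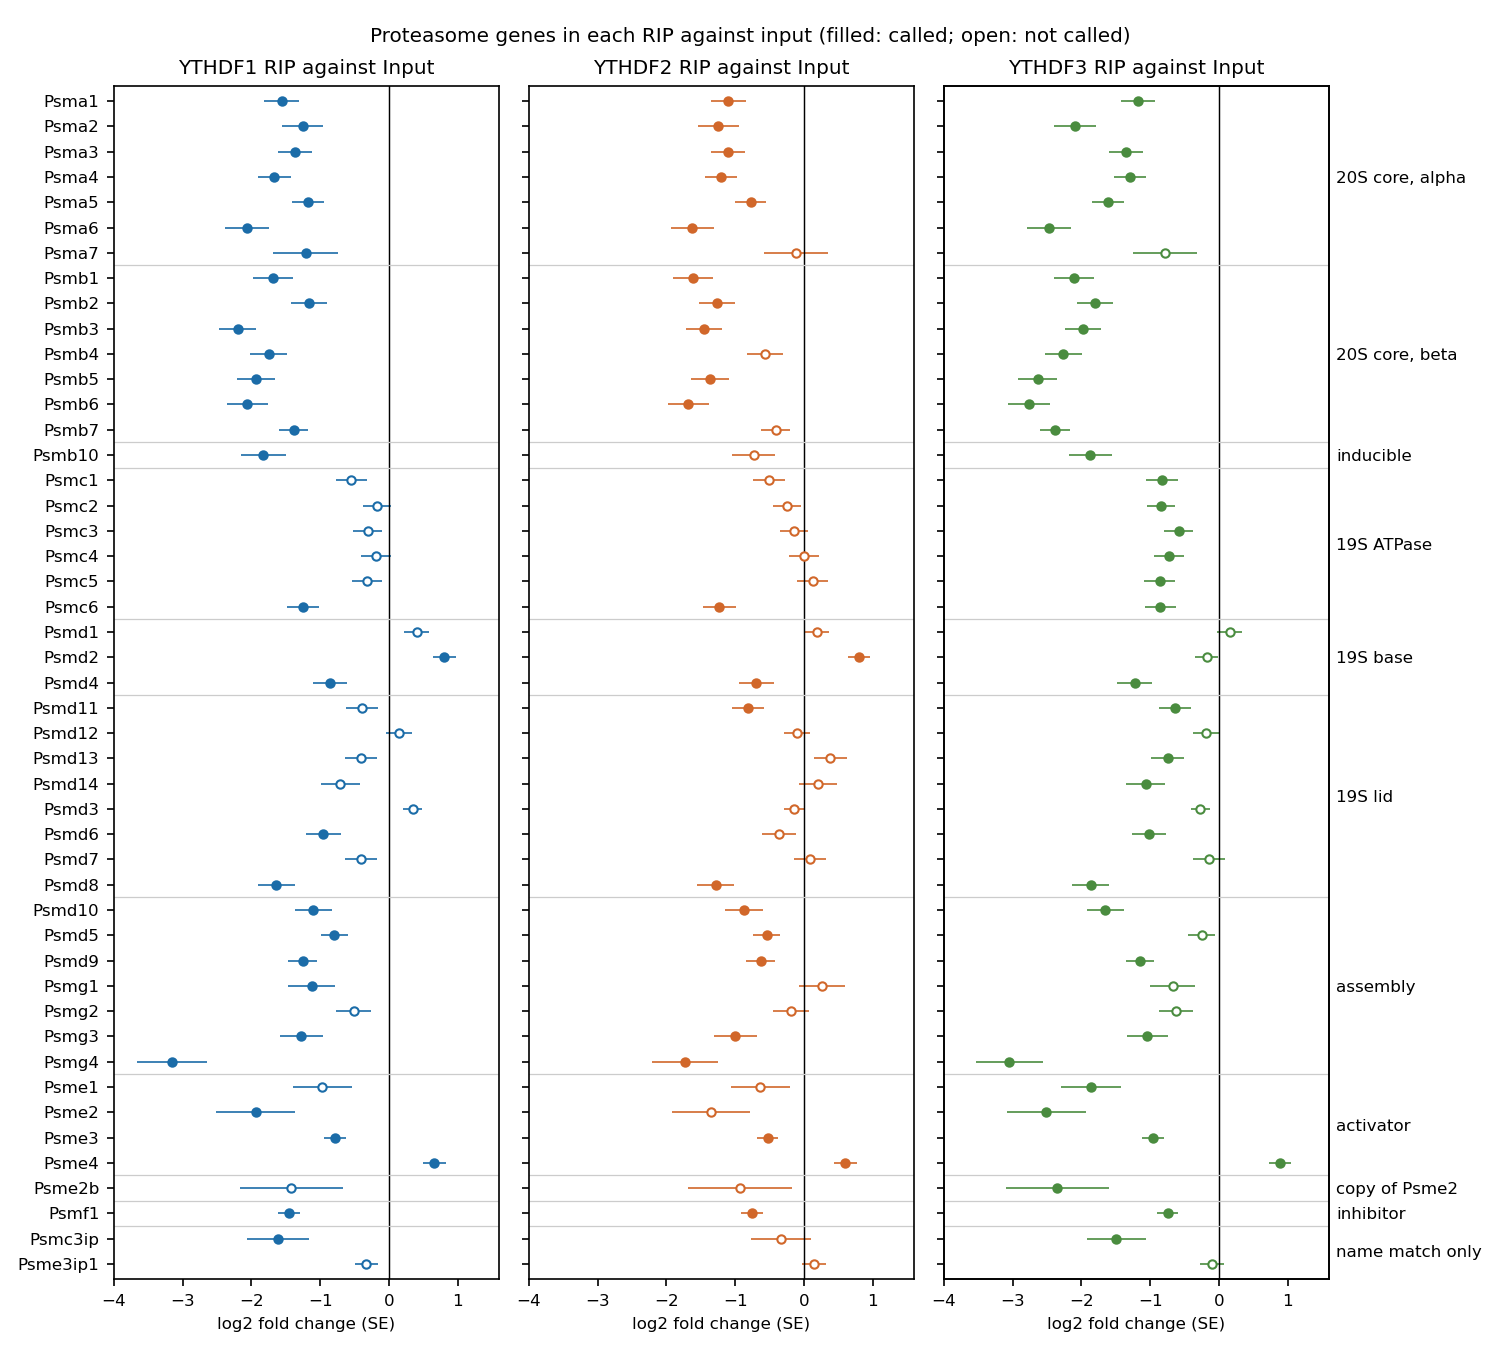
Log2 fold change of each of the 47 members against Input (points, one colour per RIP) with its standard error (bars), ordered by role in the proteasome. All 14 constitutive core genes lie below 0 in the 3 RIPs, with medians of -1.61, -1.23 and -2.04, while genes of the 19S particle lie nearer to 0, with medians of -0.39, -0.14 and -0.75.

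Alpha subunits form the outer rings of the core, whose tails gate the entrance. All 7 were depleted in the YTHDF1 RIP and 6 of 7 in each of the other RIPs, with medians of -1.36, -1.11 and -1.35. Psma6 had 36.0, 33.9 and 53.4 CPM in the 3 Input libraries, against 6.24, 15.1 and 7.93 with the YTHDF1 antibody, 11.6, 16.7 and 11.8 with the YTHDF2 antibody and 8.27, 6.55 and 7.31 with the YTHDF3 antibody. Every RIP library of Psma6 lay below every Input library. Its log2 fold changes were -2.07 ± 0.32 (SE, adjusted p = 0.000282), -1.62 ± 0.32 (adjusted p = 0.00269) and -2.48 ± 0.32 (adjusted p = 0.000154). Psma1 and Psma4 gave like values in the RIPs, at -1.56 ± 0.26, -1.10 ± 0.25 and -1.18 ± 0.25 for Psma1 and -1.67 ± 0.24, -1.21 ± 0.24 and -1.29 ± 0.23 for Psma4. Psma5 was at -1.17 ± 0.23, -0.78 ± 0.23 and -1.62 ± 0.23, and since its pseudogene Psma5-ps held 43 to 182 counts per library, the reads of this pair may be shared.

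Psma7 was the exception in the alpha ring. Its log2 fold change was -1.21 ± 0.48 in the YTHDF1 RIP (adjusted p = 0.0493), -0.11 ± 0.47 in the YTHDF2 RIP (adjusted p = 0.87) and -0.78 ± 0.47 in the YTHDF3 RIP (adjusted p = 0.211). In the paired fit Psma7 was called depleted in the YTHDF3 RIP as well (-0.71 ± 0.10, adjusted p = 5.76e-07), while the YTHDF1 call was lost (-1.55 ± 0.53, adjusted p = 0.0629).

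Beta subunits form the inner rings, and Psmb5, Psmb6 and Psmb7 carry the proteolytic sites. Depletion was called for 7, 5 and 7 of 7 constitutive beta genes in the YTHDF1, YTHDF2 and YTHDF3 RIPs, with medians of -1.75, -1.37 and -2.27. Psmb5, the chymotrypsin-like subunit, had 27.9, 28.1 and 38.7 CPM in the Input libraries, against 6.36, 12.1 and 6.38 with the YTHDF1 antibody, 9.57, 14.1 and 13 with the YTHDF2 antibody and 5.44, 4.44 and 5.29 with the YTHDF3 antibody. The YTHDF3 libraries were thus the lowest of all 12, and no RIP library reached Input. Its log2 fold changes were -1.93 ± 0.28 (adjusted p = 0.000173), -1.37 ± 0.27 (adjusted p = 0.003) and -2.64 ± 0.28 (adjusted p = 5.78e-05). The YTHDF2 call of Psmb5 was lost with the trend against exonic length removed. The Psmb5 gene shares 109 exonic bases, 12.1% of its length, with Mir686 on the same strand.

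Psmb6, the caspase-like subunit, had 40.1, 41.3 and 56.1 CPM in the Input libraries, against 10.2, 16.4 and 6.56 with the YTHDF1 antibody, 13.4, 15.7 and 13.8 with the YTHDF2 antibody and 6.21, 5.93 and 8.04 with the YTHDF3 antibody. Again all RIP libraries lay below Input. The log2 fold changes of Psmb6 were -2.06 ± 0.30 (adjusted p = 0.000185), -1.68 ± 0.30 (adjusted p = 0.00155) and -2.77 ± 0.31 (adjusted p = 6.68e-05).

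Psmb7, the trypsin-like subunit, differed from the other catalytic subunits in the YTHDF2 RIP. It had 49.1, 44.3 and 48.4 CPM in the Input libraries, against 14.8, 24 and 15.4 with the YTHDF1 antibody, 34.2, 38.6 and 34.0 with the YTHDF2 antibody and 10.8, 7.85 and 8.44 with the YTHDF3 antibody. The groups did not overlap, but the YTHDF2 libraries were close to Input. The log2 fold change was -1.38 ± 0.21 (adjusted p = 0.000252) for YTHDF1, -0.41 ± 0.21 (adjusted p = 0.145) for YTHDF2 and -2.39 ± 0.22 (adjusted p = 3.42e-05) for YTHDF3.

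Among the structural beta subunits, Psmb3 had 24.1, 26.4 and 32.6 CPM in the Input libraries, against 5.90, 8.39 and 3.89 with the YTHDF1 antibody, 8.90, 10.2 and 11.2 with the YTHDF2 antibody and 8.08, 6.59 and 6.32 with the YTHDF3 antibody. Its log2 fold change in the YTHDF1 RIP, -2.20 ± 0.27 (adjusted p = 6.23e-05), was the lowest of the 14 constitutive core genes there. Psmb1 and Psmb2 were depleted in each RIP as well, at -1.68 ± 0.29, -1.61 ± 0.29 and -2.11 ± 0.29 for Psmb1 and -1.17 ± 0.26, -1.27 ± 0.27 and -1.81 ± 0.26 for Psmb2. Psmb4 resembled Psmb7 in that its YTHDF2 libraries, at 33.5, 52.0 and 38.6 CPM, lay below the Input libraries at 57.8, 56.9 and 69.3 by less than those of the other RIPs. The YTHDF1 libraries had 13.6, 26 and 15.0 CPM and the YTHDF3 libraries 15.3, 11.1 and 11.9. The log2 fold changes of Psmb4 were -1.75 ± 0.27, -0.57 ± 0.26 and -2.27 ± 0.27, of which the second had an adjusted p of 0.111. The inducible Psmb10 was lower in level but followed the same order, with 4.72, 3.74 and 6.00 CPM in Input, against 1.16, 1.71 and 1.19 for YTHDF1, 2.66, 2.99 and 3.03 for YTHDF2 and 0.854, 1.41 and 1.65 for YTHDF3. All RIP libraries lay below Input, with log2 fold changes of -1.82 ± 0.32 (adjusted p = 0.000706), -0.73 ± 0.32 (adjusted p = 0.0944) and -1.87 ± 0.32 (adjusted p = 0.000759). The other inducible core genes, Psmb8 and Psmb9, had at most 22 and 8 counts in any library and were not tested, nor were the testis-type Psma8 and the thymus-type Psmb11.

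Of the 6 ATPases that form the unfolding ring of the 19S base, 1, 1 and 6 were depleted in the YTHDF1, YTHDF2 and YTHDF3 RIPs, with medians of -0.31, -0.19 and -0.84. Psmc6 was depleted in all 3, at -1.25 ± 0.23 (adjusted p = 0.000928), -1.23 ± 0.23 (adjusted p = 0.00225) and -0.85 ± 0.23 (adjusted p = 0.0115). Of the other base subunits, the ubiquitin receptor Psmd4 was depleted in each RIP, at -0.86 ± 0.25, -0.69 ± 0.25 and -1.23 ± 0.25 (adjusted p = 0.0123, 0.0494 and 0.00245). It was the only one of the 3 non-ATPase base genes among the members that was called depleted in any RIP. The YTHDF1 and YTHDF2 calls of Psmd4 were lost with the trend against exonic length removed (adjusted p = 0.0663 and 0.11), the YTHDF1 call in the paired fit (adjusted p = 0.0541) and the YTHDF2 call with a block in the fit of all 4 groups (adjusted p = 0.0581). The other 5 ATPases were depleted in the YTHDF3 RIP alone, where Psmc1, Psmc2, Psmc3, Psmc4 and Psmc5 were at -0.83 ± 0.23, -0.85 ± 0.20, -0.58 ± 0.21, -0.73 ± 0.22 and -0.86 ± 0.22. In the YTHDF1 RIP Psmc1 was at -0.55 ± 0.23 and Psmc2 at -0.17 ± 0.20, and no ATPase differed between RIPs by the rule given below. With the length trend removed, Psmc1, Psmc3, Psmc4 and Psmc5 were no longer called in YTHDF3 (-0.24, -0.22, -0.22 and 0.03), and Psmc5 was called enriched in YTHDF2 (0.67, adjusted p = 0.0145).

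Psmd2, which holds the base together and docks substrates, was enriched in the YTHDF1 and YTHDF2 RIPs. It had 123, 121 and 133 CPM in the Input libraries, against 191, 262 and 208 with the YTHDF1 antibody, 213, 244 and 202 with the YTHDF2 antibody and 107, 108 and 117 with the YTHDF3 antibody. The YTHDF1 and YTHDF2 libraries were all above Input, and the YTHDF3 libraries all below. Log2 fold changes of Psmd2 were 0.81 ± 0.16 (adjusted p = 0.00158), 0.80 ± 0.16 (adjusted p = 0.00323) and -0.18 ± 0.16 (adjusted p = 0.412). With libraries scaled by size alone the YTHDF1 value was 0.40 and no longer called, as was also the case for Psme4 at 0.25. The YTHDF1 call of Psmd2 was lost in the paired fit too (0.69 ± 0.31, adjusted p = 0.129), where the YTHDF2 call remained (0.80 ± 0.19, adjusted p = 0.0312). Psmd1, the other large base scaffold, had 121, 108 and 116 CPM in the Input libraries, against 127, 188 and 142 with the YTHDF1 antibody, 134, 143 and 115 with the YTHDF2 antibody and 145, 113 and 126 with the YTHDF3 antibody. Its YTHDF1 libraries all lay above Input, the other RIPs overlapped Input, and no call was made (0.41 ± 0.18, 0.19 ± 0.18 and 0.16 ± 0.18). Psmd1 shares 301 exonic bases, 4.14% of its length, with Gm21972.

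In the lid, which removes ubiquitin chains, 2, 2 and 5 of 8 genes were depleted. Psmd8 was depleted in every RIP, at -1.64 ± 0.27, -1.28 ± 0.27 and -1.87 ± 0.27 (adjusted p = 0.000422, 0.00382 and 0.000286). Psmd6 was depleted in the YTHDF1 and YTHDF3 RIPs (-0.95 ± 0.25 and -1.02 ± 0.25), and Psmd11 in the YTHDF2 and YTHDF3 RIPs (-0.81 ± 0.24 and -0.64 ± 0.23). The deubiquitinase Psmd14 had 38.2, 33.6 and 41.5 CPM in the Input libraries, against 15.8, 35.6 and 17.9 with the YTHDF1 antibody, 41.7, 53.1 and 35.6 with the YTHDF2 antibody and 19.2, 16.4 and 18.4 with the YTHDF3 antibody. It was low in all 3 YTHDF3 libraries and in 2 of the 3 YTHDF1 libraries, the second of which lay within the Input range. The log2 fold changes of Psmd14 were -0.70 ± 0.28, 0.20 ± 0.28 and -1.07 ± 0.28, of which the last was called (adjusted p = 0.0105). Psmd13 was likewise called in the YTHDF3 RIP alone (-0.75 ± 0.24, adjusted p = 0.0262). Psmd3, Psmd7 and Psmd12 gave no call in any RIP, with values from -0.41 ± 0.23 for Psmd7 to 0.35 ± 0.14 for Psmd3, both in the YTHDF1 RIP. With a length trend removed Psmd3 and Psmd12 gained calls, which are given below.

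The core and the 19S particle were then set side by side. Depletion was called for 14, 11 and 13 of 14 core genes and for 4, 4 and 12 of 17 genes of the 19S particle. Enrichment was called for no core gene and for 1, 1 and 0 genes of the 19S particle. Of all genes tested, 26.1%, 19.3% and 23.2% were depleted and 27.5%, 16.1% and 16.7% enriched. The depleted counts of the 19S particle in YTHDF1 and YTHDF2 were thus near the share over all genes, which is not matched for transcript length. Counts within a bin of like length are given below. The difference between the medians of the core and the 19S particle was -1.23, -1.08 and -1.29 on the log2 scale. Values overlapped, with 7, 5 and 8 of the 14 core genes below the lowest of these 17 genes. The name rule leaves out the 19S subunits Sem1 and Adrm1, both depleted in every RIP. With them 6, 6 and 14 of 19 genes of the 19S particle were depleted, the difference between medians was -1.20, -1.08 and -1.21, and 3, 1 and 0 core genes lay below the lowest 19S gene, Sem1.

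The same was seen in each library. The difference between the core and 19S medians, taken against the mean of Input, was -1.46, -1.09 and -1.39 in the YTHDF1 libraries, -1.11, -1.14 and -0.93 in the YTHDF2 libraries and -1.13, -1.29 and -1.45 in the YTHDF3 libraries. The second YTHDF1 library had a core median of -1.01 where the others had -2.12 and -1.95, yet its 19S median was also higher (0.08 against -0.66 and -0.55 in the others). Without that library 39 members rather than 29 were depleted in the YTHDF1 RIP.

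Summed over genes, the core particle took 632 ± 74.4 CPM in Input (SD, n = 3) and 213 ± 91.0, 315 ± 33.4 and 185 ± 20.2 for YTHDF1, YTHDF2 and YTHDF3. The 19S particle took 1133 ± 49.4 in Input and 1016 ± 252, 1075 ± 104 and 769 ± 49.2 in the RIPs. The ratio of these sums was 0.558 ± 0.0548 in Input, 0.204 ± 0.0345 in YTHDF1, 0.293 ± 0.0143 in YTHDF2 and 0.240 ± 0.0111 in YTHDF3. Input libraries ranged from 0.512 to 0.618 and RIP libraries from 0.182 to 0.302, without overlap.

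**Figure D2:**
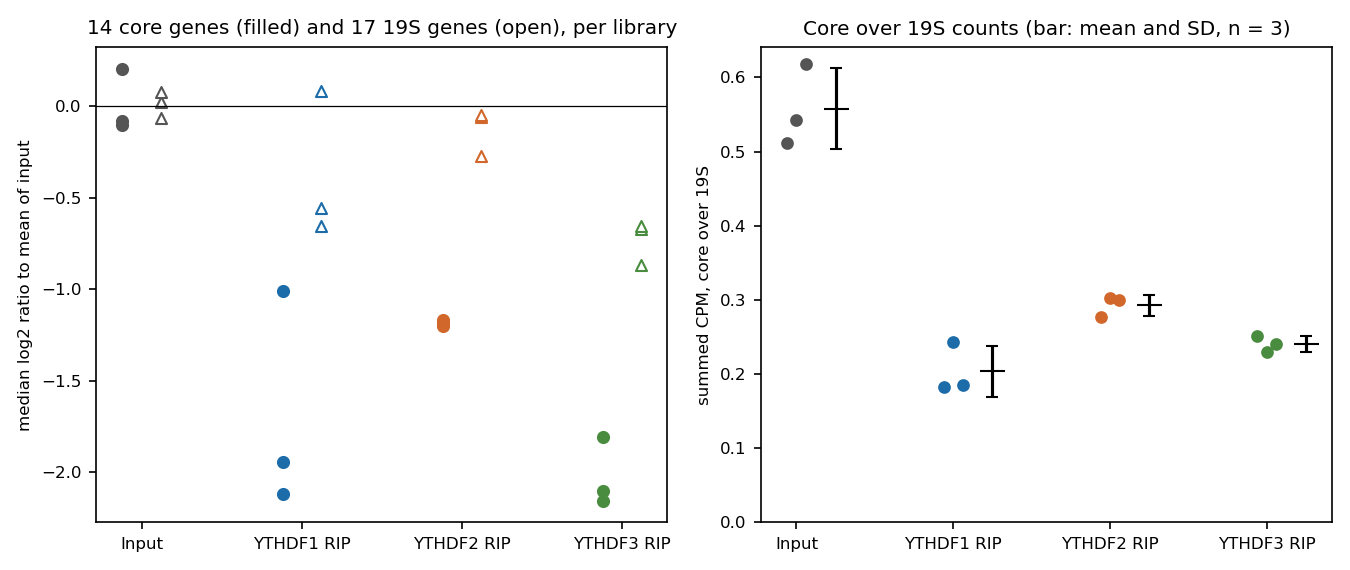
Core particle and 19S regulatory particle in each of the 12 libraries, as the median log2 level relative to the Input mean (log2 units) and as the ratio of summed core to summed 19S CPM (points are libraries, axis from 0). The ratio lies between 0.512 and 0.618 in Input and between 0.182 and 0.302 in the RIP libraries.

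Transcript length moved with these values. The median length was 1162.5 bases for core, 1636 for 19S and 3157 for all coding transcripts. Across coding genes the log2 fold change against Input rose with length, with Spearman's rho of 0.61, 0.41 and 0.62 over 13287 genes in the YTHDF1, YTHDF2 and YTHDF3 RIPs, and among the 47 members rho was 0.61, 0.45 and 0.65. With the length of the coding sequence rho was 0.62, 0.58 and 0.68 over coding genes and 0.72, 0.63 and 0.69 over members. For the 3′UTR it was 0.28, 0.05 and 0.25 over coding genes. These are descriptions across genes that share the same libraries. Median coding sequences had 744 bases for core, 1257 for 19S and 1428 for coding genes. No fit removed a trend against that length. In the tenth of coding genes with the shortest transcripts, from 63 to 1291 bases, 69.9%, 46.4% and 66.3% were depleted, and this bin held 19 members, of which 11 were core genes and none belonged to the 19S particle. Depletion was called for 16, 10 and 16 of these 19 members and for 11, 8 and 10 of the 11 core genes. The YTHDF2 count of members was thus near the share of the bin. In the next bin, from 1292 to 1810 bases, 47.8%, 30.2% and 44.4% were depleted, and it held 10 genes of the 19S particle. Of these 10, 3, 2 and 9 were depleted, a smaller share than in the bin for YTHDF1 and YTHDF2 and a larger one for YTHDF3. In the bin of the longest transcripts 1.51%, 3.31% and 1.43% were depleted.

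Within their own length bins, 10, 10 and 11 of 14 core genes lay below the bin's median in the YTHDF1, YTHDF2 and YTHDF3 RIPs, against 5, 5 and 12 of 17 genes of the 19S particle. Psma2 and Psma3, whose transcripts are 2911 and 2846 bases long, were depleted in every RIP. Most of that length is 3′UTR, with 2171 and 1952 bases, and their coding sequences have 705 and 768 bases. Psma2 had log2 fold changes of -1.25 ± 0.29, -1.24 ± 0.30 and -2.10 ± 0.30, and Psma3 of -1.36 ± 0.25, -1.11 ± 0.25 and -1.35 ± 0.25.

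With the trend against exonic length removed from every library, 23, 16 and 29 members were depleted and 1, 3 and 0 enriched, where 23.1%, 16.7% and 17.4% of all genes were depleted and 24.2%, 13.7% and 15.2% enriched. The 3 enriched in YTHDF2 were Psmd2, Psmc5 and Psmg1, and Psme4 was enriched in none. Depletion calls lost in YTHDF1 were those of Psma5, Psma7, Psmb2, Psmc3ip, Psmd4, Psmd10 and Psmg1, and Psmd11 gained one. In YTHDF2 those of Psma5, Psmb5, Psmd4, Psmd10, Psme3 and Psmg4 were lost. In YTHDF3 those of Psmc1, Psmc3, Psmc3ip, Psmc4, Psmc5, Psmd13, Psmd14, Psme2b and Psmg3 were lost, and Psmd3 and Psmd5 gained one. Core genes were depleted in 11, 9 and 13 of 14 cases and genes of the 19S particle in 4, 3 and 7 of 17. The difference between the core and 19S medians was then -1.18, -0.87 and -0.95. With the trend against the length of 1 transcript per gene removed instead, 19, 14 and 17 members were depleted, against 20.3%, 15.9% and 15.8% of all genes, and these held 11, 7 and 9 of 14 core genes and 2, 3 and 2 of 17 genes of the 19S particle. Enriched were 3, 3 and 0 members, where 3702, 2221 and 2217 of 16820 genes were. They were Psmd2, Psmd3 and Psmd12 in YTHDF1 and Psmd2, Psmc5 and Psmg1 in YTHDF2. The median difference was then -0.94, -0.60 and -1.0.

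**Figure D3:**
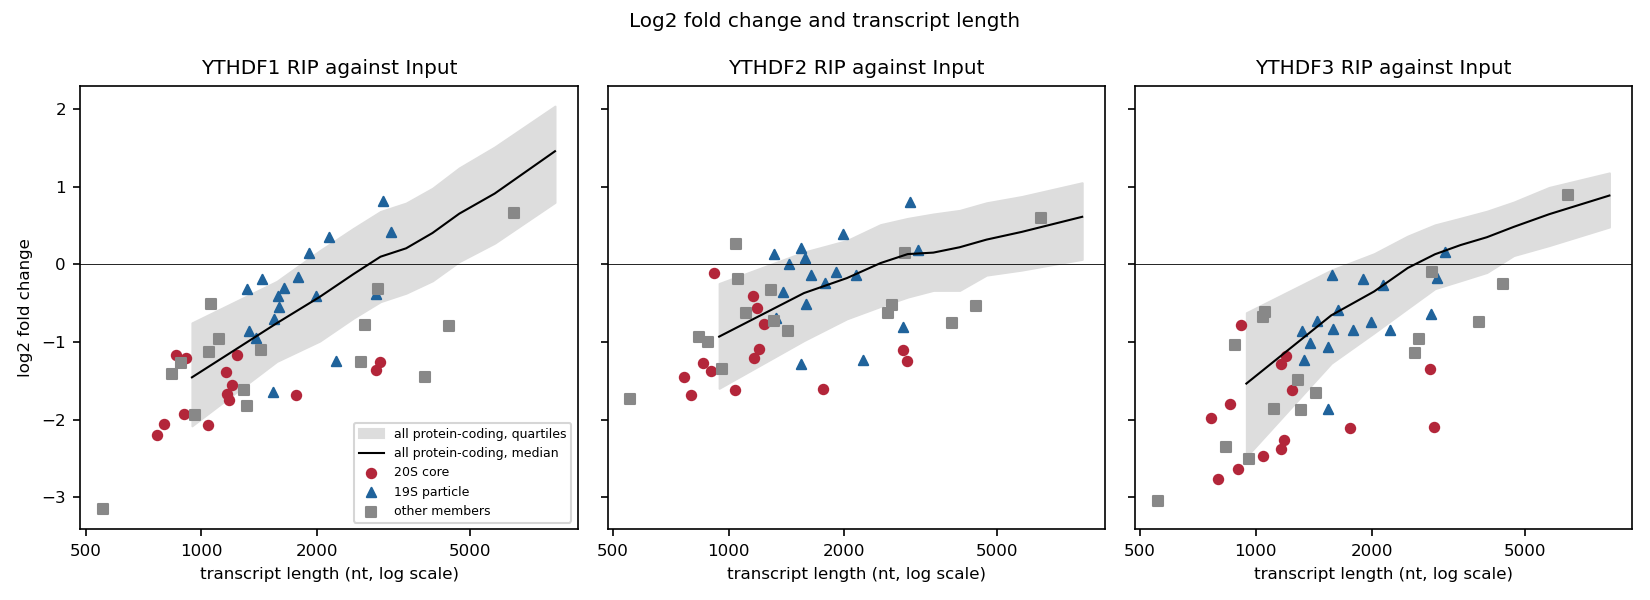
Log2 fold change against Input plotted over transcript length in bases (log axis) for the core, 19S and other members (points), one panel per RIP. Coding genes are drawn as the medians (black line) and quartiles (grey band) of 10 length bins. Core transcripts, with a median of 1162.5 bases, sit at the short end, where 69.9%, 46.4% and 66.3% of coding genes were depleted.

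The number of GGAC motifs in a transcript rose with the log2 fold change over the 47 members, with Spearman's rho of 0.58, 0.54 and 0.69 for the 3 RIPs, against 0.54, 0.48 and 0.58 over coding genes. Within the 14 core genes rho was -0.31, -0.14 and -0.04, and within the 17 genes of the 19S particle 0.50, 0.41 and 0.68. Motifs per kilobase did not track it over the 47 members, with rho of 0.00, 0.09 and 0.00. Within the core these values were -0.43, -0.26 and -0.24, and within the 19S particle -0.01, 0.10 and 0.02. Both are descriptions over genes, and the motif count grows with length.

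Assembly factors, chaperones that build the particle and are not part of it, were depleted in 6, 5 and 4 of 7 cases. Psmg4, a chaperone of the alpha ring whose transcript has 555 bases, had 6.25, 6.60 and 11.2 CPM in the Input libraries, against 0.578, 1.35 and 0.721 with the YTHDF1 antibody, 1.20, 4.04 and 2.02 with the YTHDF2 antibody and 1.36, 0.889 and 0.628 with the YTHDF3 antibody. No RIP library reached Input, although single libraries held as few as 5 counts. Its log2 fold changes were -3.15 ± 0.51 (adjusted p = 0.000362), -1.73 ± 0.48 (adjusted p = 0.0161) and -3.05 ± 0.49 (adjusted p = 0.000541). Psmd9 and Psmd10, chaperones of the 19S base, were depleted in each RIP, at -1.25 ± 0.21, -0.63 ± 0.21 and -1.14 ± 0.20 for Psmd9 and -1.10 ± 0.27, -0.87 ± 0.28 and -1.65 ± 0.27 for Psmd10. Psmd5, another base chaperone, was depleted in the YTHDF1 and YTHDF2 RIPs (-0.79 ± 0.20 and -0.54 ± 0.20) and stood at -0.25 ± 0.19 in the YTHDF3 RIP (adjusted p = 0.328). Psmg3, the partner of Psmg4, was depleted in each RIP, at -1.27 ± 0.31, -1.0 ± 0.31 and -1.04 ± 0.30. The Psmg3 gene shares 280 exonic bases (9.68%) with Gm26938. Psmg2 was not called (-0.51 ± 0.25, -0.19 ± 0.26 and -0.62 ± 0.25) unless the YTHDF3 libraries were paired with Input, which gave -0.56 ± 0.17 and an adjusted p of 0.00518.

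Of the activators, Psme4 was enriched in every RIP. It had 49.4, 45.3 and 44.3 CPM in the Input libraries, against 58.3, 79.9 and 82.2 with the YTHDF1 antibody, 63.4, 75.1 and 72.6 with the YTHDF2 antibody and 91.9, 79.7 and 86.4 with the YTHDF3 antibody. All 9 RIP libraries lay above Input. Its log2 fold changes were 0.67 ± 0.17 (adjusted p = 0.00545), 0.60 ± 0.17 (adjusted p = 0.0154) and 0.89 ± 0.17 (adjusted p = 0.00137). With the length trend removed they were 0.05, 0.27 and 0.44 and no longer called (adjusted p = 0.822, 0.217 and 0.0541). In the paired fit the YTHDF1 and YTHDF2 calls of Psme4 were lost (0.55 ± 0.29, adjusted p = 0.192, and 0.60 ± 0.18, adjusted p = 0.0589), and the YTHDF3 call remained.

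Psme3, which forms the nuclear activator ring, moved the other way, at -0.78 ± 0.16, -0.53 ± 0.16 and -0.96 ± 0.16 (adjusted p = 0.00148, 0.0222 and 0.000606). Psme1 was depleted in the YTHDF3 RIP (-1.87 ± 0.44, adjusted p = 0.00556), with values of -0.97 ± 0.43 and -0.63 ± 0.43 in the others. Psme2, at -1.94 ± 0.57, -1.35 ± 0.57 and -2.51 ± 0.58, and its copy Psme2b are uncertain, because reads that match both were counted for each. Psmf1, which encodes the regulator PI31, was depleted in all 3 RIPs, at -1.45 ± 0.16 (adjusted p = 3.68e-05), -0.76 ± 0.16 (adjusted p = 0.00392) and -0.74 ± 0.16 (adjusted p = 0.00296).

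Of the genes caught by name alone, Psme3ip1 had 23.0, 20.5 and 24.3 CPM in Input, against 19.7, 18 and 16.6 for YTHDF1, 29.1, 25.3 and 20.9 for YTHDF2 and 19.6, 19.9 and 24 for YTHDF3, with a log2 fold change of -0.10 ± 0.17 in the last, and was called in no RIP. Psmc3ip, a recombination factor, was depleted in the YTHDF1 and YTHDF3 RIPs (-1.61 ± 0.45 and -1.49 ± 0.43).

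The RIPs were next compared with each other, with a fold of at least 2 and an adjusted p of at most 0.05 as the call. Between YTHDF1 and YTHDF2, 3 members were lower in YTHDF1 and none higher, where 6.13% of all genes were lower and 11.4% higher. Between YTHDF1 and YTHDF3, 1 member was higher in YTHDF1, where 11% of all genes were higher and 3.62% lower. Between YTHDF2 and YTHDF3, 6 members were higher in YTHDF2, where 3.97% of all genes were higher and 1.17% lower. Median differences over the 47 members were -0.38, 0.27 and 0.58. In the paired fit 8 members were lower in YTHDF1 than in YTHDF2 (7.91% of all genes lower, 10.6% higher), none differed between YTHDF1 and YTHDF3 (0.6% lower, 1.95% higher), and 2, Psmb4 and Psmb7, were higher in YTHDF2 than in YTHDF3 (0.583% lower, 1.75% higher). The 5 gained between YTHDF1 and YTHDF2 were Psma7, Psmb7, Psmc3ip, Psmd14 and Psmg4.

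Psmb7 and Psmb4 differed most between YTHDF2 and YTHDF3, at 1.98 ± 0.21 (adjusted p = 0.00156) and 1.70 ± 0.27 (adjusted p = 0.00642) on the log2 scale, with the library values given above. Psmd14, Psmb5, Psmd13 and Psmb6 were the other members higher in YTHDF2 than in YTHDF3, at 1.27 ± 0.28, 1.27 ± 0.28, 1.13 ± 0.24 and 1.09 ± 0.30. With the trend against exonic length removed 4 members were called in this pair, and Psmb5 and Psmb6 were not among them. Psmd13, a lid subunit, had 36.1, 36.2 and 45.7 CPM in the Input libraries, against 20.1, 39.2 and 29.4 with the YTHDF1 antibody, 52.9, 58.5 and 42.9 with the YTHDF2 antibody and 22.4, 21 and 27.0 with the YTHDF3 antibody. Its YTHDF2 range overlapped the upper end of Input, and its YTHDF3 libraries lay below Input.

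The 3 members lower in YTHDF1 than in YTHDF2 were the alpha ring chaperone Psmg1 (-1.39 ± 0.35, adjusted p = 0.0118), Psmb4 (-1.18 ± 0.26, adjusted p = 0.00649) and Psmb10 (-1.09 ± 0.33, adjusted p = 0.0297). Psmg1 had 4.34, 4.91 and 5.47 CPM in the Input libraries, against 2.43, 3.27 and 1.15 with the YTHDF1 antibody, 6.11, 6.73 and 4.83 with the YTHDF2 antibody and 2.64, 3.22 and 3.34 with the YTHDF3 antibody. Against Input it was at -0.67 ± 0.33 in the YTHDF3 RIP (adjusted p = 0.129), which became a call at -0.61 ± 0.18 (adjusted p = 0.00457) with the replicates paired. Psmg4 had the largest difference in this pair, -1.42 ± 0.51, and no call (adjusted p = 0.0612). Psmb7 was the member higher in YTHDF1 than in YTHDF3, at 1.00 ± 0.21 (adjusted p = 0.00605), a value that sits at the fold limit and was not called in the paired fit (0.78 ± 0.32, adjusted p = 0.25). Psmd2 fell just short of the limit in the same comparison, at 0.99 ± 0.16 (adjusted p = 0.00164), and in YTHDF2 against YTHDF3, at 0.98 ± 0.16 (adjusted p = 0.00759).

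**Figure D4:**
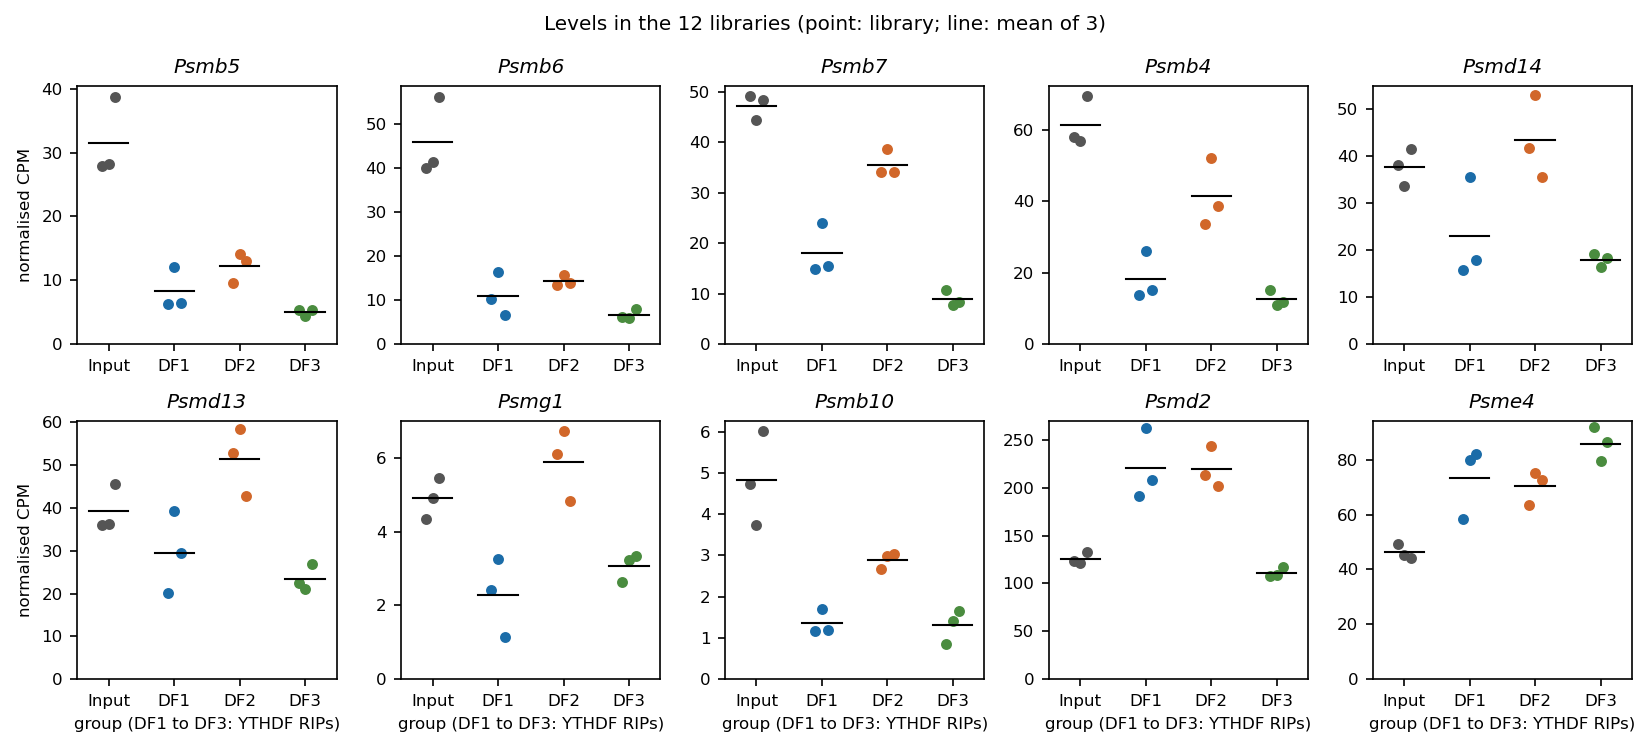
Normalised CPM of members described in the text in each of the 12 libraries (points, 3 per group, with a line at their mean, DF1 to DF3 being the YTHDF RIPs), one panel per gene with its own axis. Psmb5 and Psmb6 are below Input in every RIP library, Psmb7 stays near Input only in the YTHDF2 RIP, and Psme4 is above Input in all 9 RIP libraries.

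Other genes of the pathway were taken as a fixed list of 31, of which 30 were tested and Paaf1 was not. Among 10 tested genes for further proteasome components and partners, 2, 1 and 2 were enriched and 6, 5 and 6 depleted in the YTHDF1, YTHDF2 and YTHDF3 RIPs, where 27.5%, 16.1% and 16.7% of all genes were enriched and 26.1%, 19.3% and 23.2% depleted. With the length trend removed these counts were 0, 0 and 0 enriched and 6, 7 and 5 depleted. Of all genes, 24.2%, 13.7% and 15.2% were then enriched and 23.1%, 16.7% and 17.4% depleted. Sem1, a small lid subunit, was at -1.93 ± 0.35, -1.65 ± 0.35 and -3.48 ± 0.37 (adjusted p = 0.000739, 0.00387 and 5.49e-05). Pomp, the chaperone that matures the core, was at -1.80, -0.98 and -2.63. Ecpas, a large scaffold that binds the proteasome, was enriched by YTHDF1 (1.20, adjusted p = 0.00126) and YTHDF3 (0.81, adjusted p = 0.0157), and neither call remained with the length trend removed.

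Of 15 genes for ubiquitin, its activation and substrate delivery, 5, 1 and 0 were enriched and 7, 6 and 6 depleted. Of all genes, 27.5%, 16.1% and 16.7% were enriched and 26.1%, 19.3% and 23.2% depleted. With the length trend removed 6, 1 and 1 were enriched and 7, 6 and 5 depleted, against 24.2%, 13.7% and 15.2% and 23.1%, 16.7% and 17.4% of all genes. The ubiquitin fusion gene Rps27a was at -2.39, -1.83 and -3.03. The ubiquitin-activating enzymes were on the other side in YTHDF1, with Uba1 at 1.49 ± 0.21 (adjusted p = 0.00015) and Uba6 at 2.30 ± 0.29 (adjusted p = 7.7e-05), and so was the ligase Ube3a at 3.32 ± 0.43 (adjusted p = 9.13e-05). None of them was called in YTHDF2 or YTHDF3, with Uba1 at 0.22 and 0.33, Uba6 at 0.08 and 0.45 and Ube3a at 0.08 and 0.50. Of 5 genes that regulate proteasome levels, 2, 1 and 0 were enriched and none depleted, and with the length trend removed 1, 0 and 0 were enriched. These counts stand beside the same shares of all genes. Nfe2l1, the transcription factor that induces proteasome genes, was at 1.20 (adjusted p = 0.00267), 0.62 and 0.60, and Ddi2, the protease that activates it, at 1.15 (adjusted p = 0.00126), 0.65 (adjusted p = 0.0413) and 0.60 (adjusted p = 0.0507), of which the calls in YTHDF1 and YTHDF2 were lost with the length trend removed.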

How the data were processed

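RNA was sequenced from 3 Input and 9 RIP libraries made with a stranded, UMI-tagged total RNA kit. Per the labels and the study's methods, the authors extracted UMIs with UMI-tools 1.1.1, trimmed with cutadapt 3.4, aligned to mm10 with STAR 2.7.7a, removed duplicates by UMI and counted with featureCounts 2.0.1 against Ensembl 97, by strand, with multi-mapped and multi-overlapping reads counted. Copies and overlapping genes can therefore share reads. The deposited file holds raw counts per gene, and the gene length in bases beside them (another deposited annotation column). Biotype and gene name, the other annotation, came from a deposited table whose log2 fold changes and p-values, the authors' own comparison of a RIP with Input, were not used.

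Counts were tested in edgeR 4.0.16 (R 4.3.3) with the quasi-likelihood test over all 12 libraries and 4 groups, without a block. Genes needed a mean of at least 10 counts after division by size factors, TMM factors followed the filter, and p-values were adjusted by Benjamini-Hochberg over 16820 genes. A standard error is the log2 fold change over the square root of F. CPM values were scaled by TMM. The biological coefficient of variation was 0.322, and no pair of libraries held identical counts. P-values measure the spread between the 3 replicates of pooled wells. A permutation test of 3 against 3 cannot go below p = 0.1, so single sums are given with no test.

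Values in every library are given for the 3 lowest and 3 highest members in each RIP, the 2 with the largest difference in each pair of RIPs, the catalytic subunits, every enriched member and every member called between RIPs (the last class chosen after the values were seen), and other members are given by counts, medians or fold changes. Members, lists and rules were chosen with earlier results of these data known. Transcripts, motifs and positions come from GENCODE M21 (GRCm38), 1 transcript per gene.

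By the study's methods, same-numbered libraries share a lysate, so paired fits are given where they change a call. Deviations from group means correlated at 0.82, 0.50 and 0.80 between YTHDF3 and Input. For YTHDF1 and Input they correlated at 0.08, -0.25 and -0.30, and for YTHDF2 and Input at 0.18, -0.31 and -0.29. Alternatives were DESeq2 1.42.0, other scalings and filters, the replicate block, fits of 2 groups, removal of a length trend (loess, span 0.3) and leaving out each library. The length of 1 transcript per gene, in place of exonic length, and the 19S particle with Sem1 and Adrm1 were added after seeing the data. Scripts were tested on simulated data.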

Additional observations from a re-analysis of the deposited data

Results flagged for a closer look

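In 10 cases a member's recovery relative to Input differed between a pair of RIPs, as tested directly between the RIP groups. Groups of 3 libraries were too small for a search for stray libraries. YTHDF2 exceeded YTHDF3 for Psmb7 by 1.98 ± 0.21, Psmb4 by 1.70 ± 0.27, Psmd14 by 1.27 ± 0.28, Psmb5 by 1.27 ± 0.28, Psmd13 by 1.13 ± 0.24 and Psmb6 by 1.09 ± 0.30 on the log2 scale. The calls of Psmb7 and Psmb4 were kept under every alternative run, and that of Psmb6 was lost on leaving out any 1 of the 9 libraries of Input, YTHDF2 and YTHDF3. YTHDF1 against YTHDF2 stood at -1.39 ± 0.35 for Psmg1, -1.18 ± 0.26 for Psmb4 and -1.09 ± 0.33 for Psmb10. YTHDF1 against YTHDF3 stood at 1.00 ± 0.21 for Psmb7, where the second YTHDF1 library was the highest of its group, and without that library the value was 0.62 and not called.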

How the results depend on the processing

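The direction of the core to 19S difference was kept under every alternative run. It was -0.87 in YTHDF2 and -0.95 in YTHDF3 with the length trend removed, -0.86 and -0.95 with that and the replicate block, -0.94, -0.60 and -1.0 (YTHDF1, YTHDF2, YTHDF3) with the length of 1 transcript per gene, and -0.97 in YTHDF2 for all Psma and Psmb against all Psmc and Psmd genes. Leaving out 1 library gave -1.35 to -1.20, -1.11 to -1.05 and -1.39 to -1.21. Depleted members numbered 19, 14 and 17 in place of 29, 22 and 36 with the 1-transcript length, and 14 in YTHDF2 with the length trend removed under the replicate block. Leaving out 1 library gave 28 to 39, 14 to 26 and 28 to 36 depleted members, with the lowest YTHDF2 count without YTHDF2 replicate 3, and 2 to 3, 1 to 2 and 1 enriched, with 1 in YTHDF2 without Input replicate 2 or 3 or YTHDF2 replicate 2.

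Enriched members in YTHDF1 (2) were 0 with library size alone or a 2-group replicate block, and 1 with no filter, with the length trend removed, with or without the block, or in 2 unblocked groups. With the 1-transcript length they were 3. In YTHDF2 (2) they were 0 with no filter, 1 with the 2-group block and 3 with the trend against exonic or 1-transcript length removed. In YTHDF3 (1) they were 2 with library size alone and 0 with any length trend removed. Members differing between YTHDF1 and YTHDF2 (3) were 6 with DESeq2, 14 with library size alone, 7 with TMM from coding genes, 1 with the 1-transcript length and 8 with the 2-group block, and 1 to 12 on leaving out 1 library, 12 without YTHDF1 replicate 2, 6 without Input replicate 3 and 1 without YTHDF2 replicate 2. Those between YTHDF1 and YTHDF3 (1) were 7 with library size alone, 0 under all other alternatives but the length trend removed without a block, and 0 to 3 on leaving out 1 library, with 3 without YTHDF1 replicate 1 and 0 without Input replicate 3, YTHDF1 replicate 3 or YTHDF3 replicate 2. Those between YTHDF2 and YTHDF3 (6) were 3 with length and block, 2 with the 1-transcript length, 2 with the 2-group block and 2 to 8 on leaving out 1 library, 2 without YTHDF2 replicate 2, YTHDF3 replicate 1 or YTHDF3 replicate 2. The median level per length in Input was 19.2 with coding genes alone as the total and 13.4 to 14.9 on leaving out 1 library.

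Values that changed sign were Psme4 in YTHDF1 (-0.31) and Psmb7 in YTHDF2 (0.18) with the 1-transcript length, Psmd1 in YTHDF1 with library size alone (-0.00337), length (-0.076) and length with block (-0.089), Psmd1 in YTHDF3 with length (-0.23) and length with block (-0.23), and Psme3ip1 in YTHDF3 with library size alone (0.24), no filter (0.037) and without Input replicate 3 (0.00425, lowest -0.19 without YTHDF3 replicate 3). Library size alone moved the median of all genes by -0.40, 0.07 and 0.33 in the 3 RIPs and TMM from coding genes by -0.24, -0.11 and -0.04. Library size alone changed the share of calls that were higher from 51.3%, 45.5% and 41.9% to 33.4%, 48.9% and 61.7%, while TMM from coding genes gave 40.1%, 36.8% and 39.1%. Causes of these changes were not tested.

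With the replicate block in 2-group fits, YTHDF3 gained Psma7, Psmg1 and Psmg2 as depleted, and YTHDF1 and YTHDF2 fell to 21 and 17 depleted members. With the block in the fit of 4 groups the depleted members numbered 30, 20 and 35 and the enriched ones 2, 2 and 1. No control-antibody RIP entered, and changes near the fold limits rest on 3 libraries a group.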
